A study of Saccharomyces cerevisiae with 11 samples.

Results

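The genes of GTP synthesis in budding yeast (Saccharomyces cerevisiae) were IMD2, IMD3, IMD4 and GUA1. They were taken as every probe set annotated to at least 1 of these 4 genes, which gave 4 of 5923 annotated genes and 7 of the 9335 probe sets on the array. IMD2 (YHR216W) had 3 probe sets, IMD4 (YML056C) had 2, and IMD3 (YLR432W) and GUA1 (YMR217W) had 1 each, and 0 of the 7 listed a second gene. The rule itself used no measured value.

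IMP dehydrogenase, encoded by IMD2, IMD3 and IMD4, turns IMP into XMP, the committed step from the common purine precursor towards GTP. GMP synthase, encoded by GUA1, turns XMP into GMP. IMD2 is a textbook case of control during transcription. When GTP is plentiful, RNA polymerase II starts at upstream sites and the short transcript is ended early by Nrd1, Nab3 and Sen1, and when GTP is scarce it starts further downstream and makes the mRNA. Cells with weakened elongation factors have often been tested by how they raise IMD2 when a drug lowers GTP. No such drug is named in the labels, so the values below are levels in growing cells.

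Total RNA was measured on 11 Affymetrix arrays. The 5 strain arrays came from cells grown to mid-log phase in YPD with 4% glucose, and comprised wild type (2 arrays), a paf1 deletion (2) and a ctr9 deletion (1). The 6 time course arrays came from a strain with PAF1 under the TetO2 promoter, which doxycycline represses, sampled without doxycycline (0 h) and after 2, 4, 5, 6 and 8 h in it, with 1 array per time. Paf1 and Ctr9 are subunits of the Paf1 complex, which travels with RNA polymerase II. The labels gave no further genotypes, no medium for the time course and no statement that replicates were separate cultures, so p-values measured only the spread between arrays, which may be technical. An effect of a deletion and a difference in strain background cannot be told apart.

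The strain arrays held a score with limits of -10 and 10 and an unstated scale, and the time course arrays a linear signal. Across 9275 probe sets the mean score followed the mean log2 signal (Spearman correlation 0.922, across probe sets), but among the 928 with the highest signals it did not (-0.254). Of the 7 GTP synthesis probe sets 6 lay among those 928, so a difference in score is not a fold change and may be compressed. The exception was the IMD2 probe set 11263_f_at, at the 76.2nd percentile of signal. The suffix _f_at marks probe sets whose probes match a family of similar sequences, and 4 of the 7 carried it, the 3 of IMD2 and the 1 of IMD3. Their values may therefore mix transcripts of the IMD genes. IMD1, a further IMD gene, had no probe set of its own and was not tested, and whether these probe sets also match it is not known. The 28 control probe sets with no yeast target scored from -2.08 to 1.93 and gave a median signal of 5.5, far below every GTP synthesis value.

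PAF1 scored 7.27 and 8.08 in wild type against 1.00 and 0.47 in its deletion, a difference of -6.94 (SE 0.59, limma adjusted p = 0.000487). For CTR9 the wild type scores were 1.84 and 4.36 and the score in its deletion 0.00, a difference that did not pass (-3.10, limma adjusted p = 0.414). In the time course the PAF1 signal was 272 at 0 h and 119 at 2 h, then 139, 165, 184 and 166 after 4, 5, 6 and 8 h. The PAF1 transcript was thus lowest at 2 h, at 43.7% of 0 h, and stood at 67.6% at 6 h and 61.0% at 8 h. Its slope was -0.04 log2 units per hour (SE 0.059, limma adjusted p = 0.857). On the 4 h array the 5′ actin control gave 5.92% of the 3′ actin control, against 68.6% to 78.6% at the other times. The spike-in controls, added transcripts, stood at 4.34-fold of 0 h on the 4 h array and 3.93-fold on the 6 h array.

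Loss of Paf1 was first set against wild type. None of the 4 genes passed the test in the paf1 deletion. In bulk RNA, fewer cells carrying a transcript and less of it per cell cannot be told apart. Differences of the 7 probe sets ran from -0.30 to 0.52 score units, with a median of -0.03 against -0.06 over all 6493 tested probe sets. The 3 IMD2 probe sets were nominally higher and the other 4 lower, with adjusted p from 0.794 to 0.99 (limma, Benjamini-Hochberg, all arrays). Without wild type array 1, however, the differences of IMD3, 9700_at of IMD4 and GUA1 were 0.31, 0.15 and 0.23. At the threshold of 0.05, with all arrays, 1.71% of all tested probe sets passed, so 0 of 7 is near the background. An unadjusted p under 0.05 was met by 0 of 7 and by 14.8% of all.

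IMD2, the isoform that cells induce when GTP runs low, was the most variable of the family between wild type arrays. Probe set 11263_f_at scored 7.10 and 4.87 (wild type), 6.23 and 6.02 (paf1 deletion), and 6.45 (ctr9 deletion). All 3 deletion arrays lay between the wild type arrays. The paf1 deletion differed from wild type by 0.14 (SE 0.71, 95% interval -1.43 to 1.71, n = 2 per group, limma adjusted p = 0.973). Probe set 11264_f_at scored 7.87 and 5.69 (wild type), 7.61 and 7.0 (paf1 deletion), and 7.07 (ctr9 deletion). All 3 deletion arrays again lay between the wild type arrays, with a paf1 difference of 0.52 (SE 0.68, 95% interval -0.98 to 2.03, limma adjusted p = 0.811). Probe set 4323_f_at scored 8.76 and 7.09 (wild type), 8.73 and 7.99 (paf1 deletion), and 8.18 (ctr9 deletion). The paf1 difference was 0.43 (SE 0.53, 95% interval -0.74 to 1.61, limma adjusted p = 0.794). Each of these 3 differences turned negative when the second wild type array was left out, to -0.97, -0.57 and -0.40, and rose to 1.25, 1.61 and 1.27 without the first, so their sign rested on 1 array.

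**Figure D1:**
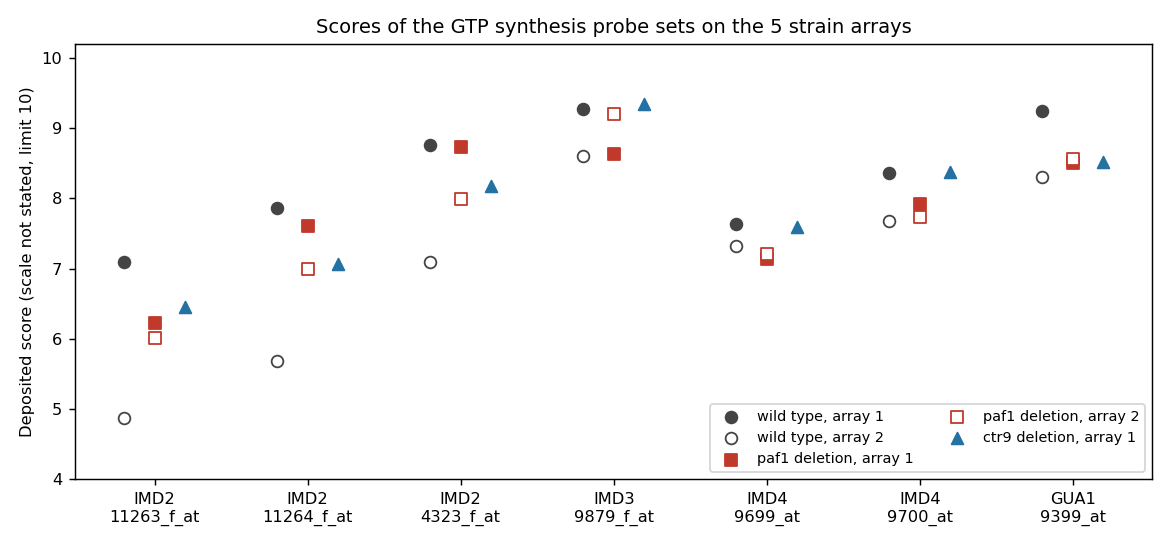
Deposited scores (vertical axis, scale not stated, limit 10) of the 7 probe sets on the 5 strain arrays, 1 point per array. For the 3 IMD2 probe sets and GUA1 the red and blue deletion points lie between the filled and open wild type circles, which are 1.67 to 2.23 apart for IMD2.

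IMD3, a constitutively expressed IMP dehydrogenase gene, scored 9.28 and 8.61 (wild type), 8.63 and 9.21 (paf1 deletion), and 9.35 (ctr9 deletion). Wild type and paf1 deletion overlapped almost completely, with a difference of -0.03 (SE 0.31, 95% interval -0.71 to 0.66, limma adjusted p = 0.99). The ctr9 deletion array lay just above both wild type arrays, by 0.40 over their mean (SE 0.38, 95% interval -0.44 to 1.25, n = 1 against 2, limma adjusted p = 0.859).

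IMD4, the other constitutive gene, carries the snoRNA gene SNR54 inside its annotated span, and was covered by 2 probe sets. Probe set 9699_at scored 7.64 and 7.32 (wild type), 7.14 and 7.21 (paf1 deletion), and 7.59 (ctr9 deletion). It was the 1 of 7 probe sets whose paf1 deletion and wild type arrays did not overlap, against 43.5% of all tested probe sets. The difference was -0.30 (SE 0.44, 95% interval -1.28 to 0.67, limma adjusted p = 0.837). Probe set 9700_at scored 8.36 and 7.68 (wild type), 7.92 and 7.74 (paf1 deletion), and 8.38 (ctr9 deletion), which placed both paf1 deletion arrays inside the wild type range. Its paf1 difference was -0.19 (SE 0.39, limma adjusted p = 0.903).

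GUA1, the GMP synthase gene, scored 9.25 and 8.30 (wild type), 8.50 and 8.56 (paf1 deletion), and 8.52 (ctr9 deletion). The 3 deletion arrays fell within 0.06 of each other and between the wild type arrays. The paf1 difference was -0.24 (SE 0.36, 95% interval -1.03 to 0.54, limma adjusted p = 0.838).

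The second comparison asked the same of Ctr9. None of the 7 probe sets passed in the ctr9 deletion, where 0.0308% of all tested probe sets did, and 0 of 7 had an unadjusted p under 0.05, against 9.64% of all. Differences ran from -0.26 for GUA1 to 0.47 for IMD2 (11263_f_at), 6 of 7 being positive, with adjusted p from 0.859 to 0.995 (limma, n = 1 against 2). These directions were not stable: the IMD2 differences were -0.65, -0.80 and -0.58 without wild type array 2, and -0.145, -0.407 and -0.347 with a replicate block. The difference of 9699_at was -0.05 without wild type array 2, and that of GUA1 0.22 without wild type array 1. The array lay outside the wild type range for 2 of 7 probe sets, those of IMD3 and 9700_at of IMD4, against 64.9% of all tested. The widest 95% intervals, those of the IMD2 probe sets, reached from -1.55 to 2.38 score units, so sizeable changes of IMD2 were not detectable with 3 arrays in the comparison. Both deletions were compared with the same wild type arrays.

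The deletions were then set against each other. Differences, paf1 deletion minus ctr9 deletion, ran from -0.55 for 9700_at of IMD4 to 0.24 for 11264_f_at of IMD2, and the adjusted p was 1 for all 7 (limma, 0.0616% of all probe sets past the threshold). An unadjusted p under 0.05 was met by 0 of 7 and by 2.93% of all. IMD3 and both IMD4 probe sets were nominally lower in the paf1 deletion, by -0.43, -0.42 and -0.55. GUA1 differed by 0.01 (SE 0.44, 95% interval -0.95 to 0.97).

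**Figure D2:**
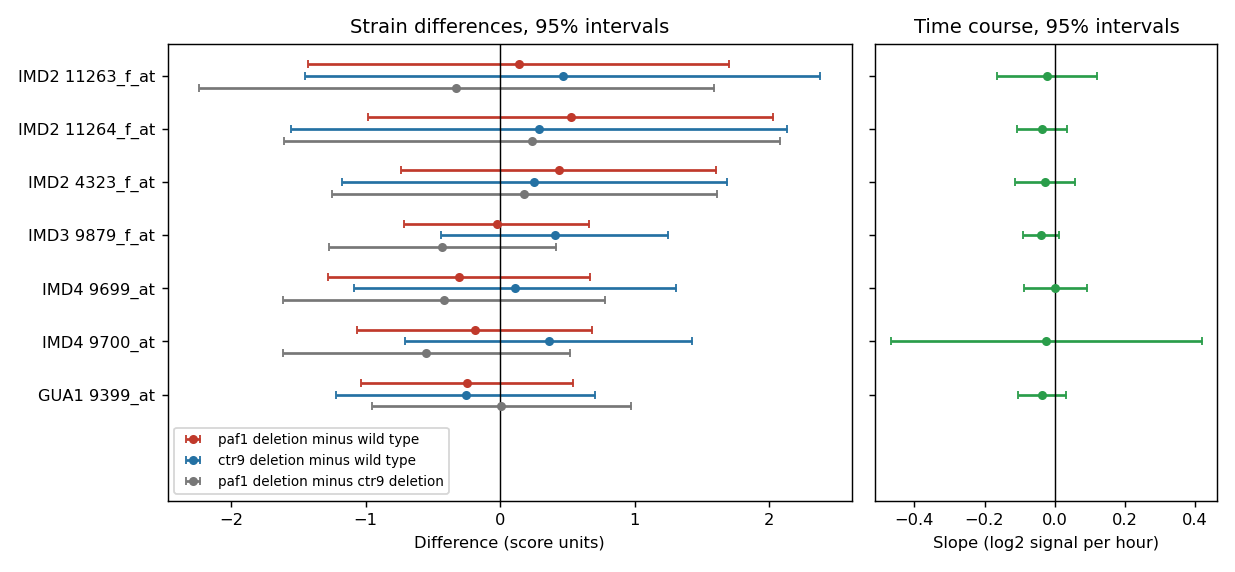
Differences between strains in score units (left) and slopes in log2 signal per hour of doxycycline (right) for the 7 probe sets, with 95% intervals from limma. Every interval includes 0, and the widest slope interval belongs to 9700_at of IMD4.

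Placement of the deletion arrays was counted against both wild type arrays. Both paf1 deletion arrays lay between the wild type arrays for 6 of 7 GTP synthesis probe sets, against 18.8% of all tested, and all 3 deletion arrays did so for 4 of 7, against 14.1%. The 4 were the IMD2 probe sets, which share target sequence, and GUA1. These counts depend on how far apart the wild type arrays were.

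The gap between the wild type arrays was largest for IMD2. It was 2.23, 2.18 and 1.67 score units for 11263_f_at, 11264_f_at and 4323_f_at, array 1 being higher. Among the 3339 tested probe sets with a mean score of at least 6, 0.749%, 0.869% and 3.71% had a gap at least as large in either direction. Array 1 was the higher one for 76.5% of those probe sets, with a median gap of 0.41. For GUA1 the gap was 0.95, for IMD3 0.67, and for IMD4 0.32 and 0.68, which 20.1%, 38.2%, 70.4% and 37.5% of probe sets matched or exceeded. Between the paf1 deletion arrays the IMD2 gaps were only 0.21, 0.61 and 0.74.

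Some other purine genes also had gaps well above the median between these 2 arrays. MTD1, a folate enzyme gene of one-carbon supply, scored 8.33 and 4.99, the 6th largest gap of the 3339. ADE1, an enzyme of IMP synthesis, scored 8.25 and 6.53 (rank 104), and ADE13, adenylosuccinate lyase, 7.43 and 6.19 (rank 331). These 3 genes were singled out after their values were seen. Over the list of IMP synthesis genes, 13 of 14 were higher on wild type array 1, with a median gap of 0.64 against 0.41 for all. This was not particular to purine genes, since 6 of 6 pyrimidine synthesis genes were also higher there, with a median gap of 0.575.

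**Figure D3:**
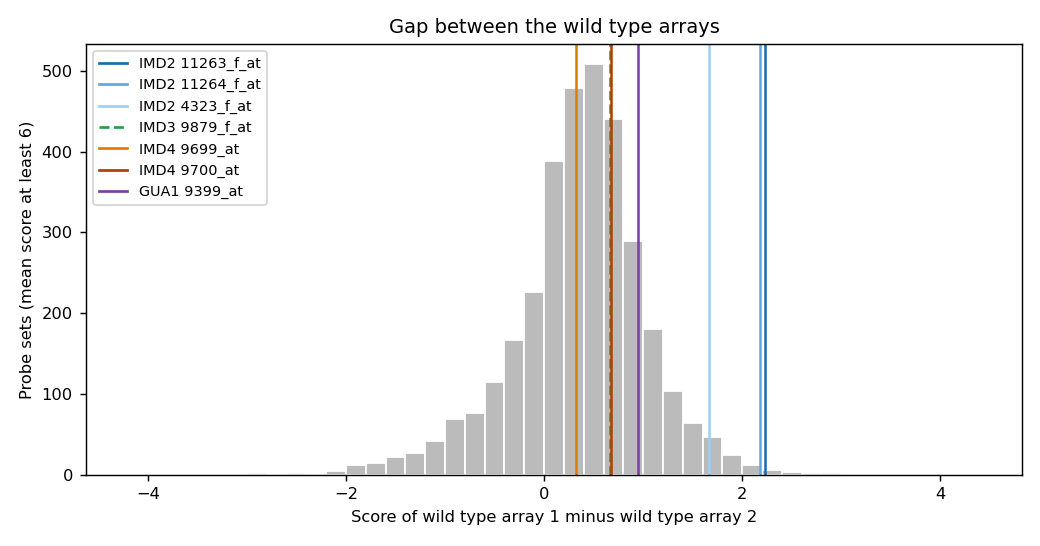
Distribution of the score gap between the 2 wild type arrays over 3339 probe sets with a mean score of at least 6 (bars), with the 7 GTP synthesis probe sets as vertical lines. The IMD2 lines, at 1.67 to 2.23, lie in the right tail, while IMD3, IMD4 and GUA1 lie between 0.32 and 0.95.

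The time course asked how the genes change while doxycycline represses PAF1, whose signal fell only in part. None of the 7 probe sets had a slope past the threshold, and neither did any of the 6492 tested probe sets (0%, limma, 8.67% with an unadjusted p under 0.05, 0 of them GTP synthesis probe sets). Slopes ran from -0.04 log2 units per hour for IMD3 to 0.002 for 9699_at of IMD4, 6 of 7 being negative, with a median of -0.03 against 0.01 for all tested probe sets. The IMD3 slope was -0.039 (SE 0.022, 95% interval -0.091 to 0.013, 6 arrays, limma adjusted p = 0.632) and the GUA1 slope -0.036 (SE 0.029, adjusted p = 0.724).

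The single times, each 1 array without a test, shared a shape. IMD3 signal was 5464 before doxycycline, then 4605, 4652, 5252, 4353 and 4159 after 2, 4, 5, 6 and 8 h. GUA1 signal was 5181 before doxycycline, then 4094, 4484, 5372, 3885 and 3945 after 2, 4, 5, 6 and 8 h. Both were lower at 2 h, back near the starting level at 5 h and lower again afterwards.

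IMD4 followed the same course on probe set 9699_at, and apart from the 4 h array also on 9700_at, described below. Probe set 9699_at gave 4016 before doxycycline, then 2779, 3574, 4738, 3513 and 3394 after 2, 4, 5, 6 and 8 h. Its lowest value, 69.2% of 0 h, came at 2 h and its highest, 118%, at 5 h.

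IMD2 had 2 probe sets of high signal and 1 of lower signal. Probe set 11264_f_at gave 2936, 2353, 2275, 2951, 2604 and 2074 at 0, 2, 4, 5, 6 and 8 h. Probe set 4323_f_at gave 1958, 1470, 1816, 2142, 1767 and 1401 at the same times. Both were highest at 5 h and lowest at 8 h, at 70.7% and 71.6% of 0 h. Probe set 11263_f_at gave 628 before doxycycline, then 509, 304, 616, 662 and 448 after 2, 4, 5, 6 and 8 h, and differed from the other 2 mainly by its low value at 4 h.

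Set against 0 h, all 7 probe sets were lower at 2 h, at 67.5% to 84.3%, whereas 45.9% of all tested probe sets were lower at that time. Their median was 79.0% of 0 h, against 103% for all tested probe sets and 100.5% for the 928 with the highest signals. A drop of 1.5-fold or more, which 11.1% of all showed at 2 h, was reached by 0 of 7. At 4 h 7 of 7 were lower (45% of all), 2 of them by 1.5-fold or more (13.7% of all). At 5 h their median was 103%, with 2 of 7 under the 0 h value against 51% of all and 0 of 7 down 1.5-fold (13% of all). At 6 h 6 of 7 were lower (43.1% of all) and at 8 h 7 of 7 (43% of all), with a median at 8 h of 72.7% and a range of 70.7% to 84.5%. Of the 928 probe sets with the highest signals, 48.5%, 58.6%, 41.2%, 62.4% and 53.8% were lower at 2, 4, 5, 6 and 8 h. At 2, 4, 6 and 8 h a larger share of them than of all tested probe sets was therefore lower. A 1.5-fold drop was reached by 1 of 7 at 6 h (10.4% of all) and 0 of 7 at 8 h (9.57% of all). The 7 probe sets share arrays, and some share sequence, so they are not independent. All 5 later times rest on the same 0 h array.

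**Figure D4:**
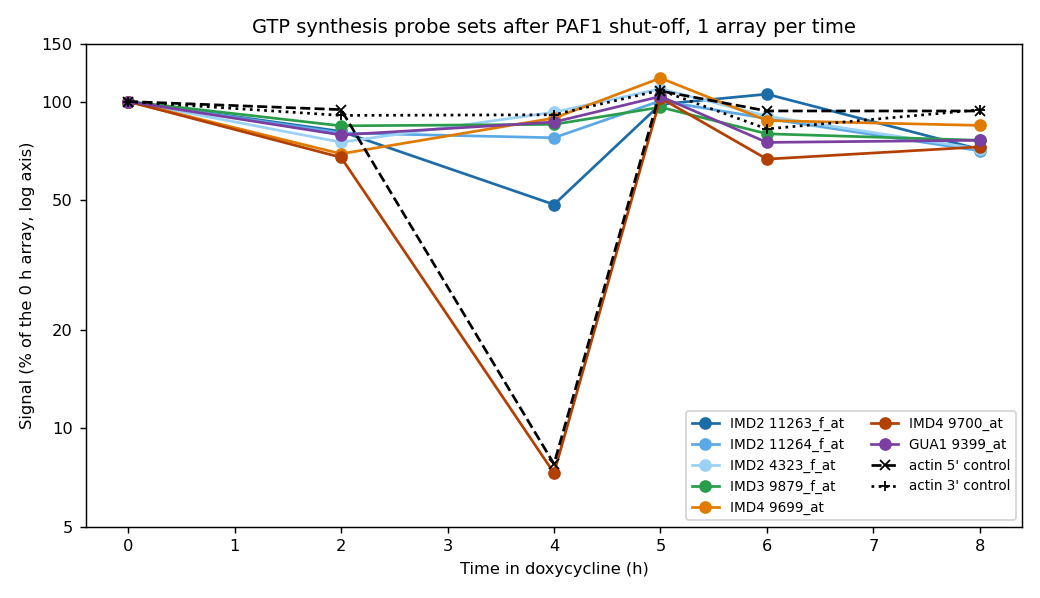
Signal of the 7 probe sets as a percentage of the 0 h array (log axis) against hours in doxycycline, with the 5′ and 3′ actin controls in black, 1 array per time. The 7 lines span 67.5% to 84.3% at 2 h, 96.1% to 118% at 5 h, 66.7% to 105% at 6 h and 70.7% to 84.5% at 8 h, and at 4 h 9700_at of IMD4 (7.30%) lies next to the 5′ actin control (7.79%).

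The IMD4 probe sets diverged at 4 h only. Probe set 9700_at gave 5729 before doxycycline, then 3865, 418, 5875, 3819 and 4163 after 2, 4, 5, 6 and 8 h. At 4 h it stood at 7.30% of 0 h, while 9699_at of the same gene stood at 89.0%, a 12.2-fold divergence. At the other times the pair diverged by 1.03- to 1.31-fold. A drop of at least 10-fold at 4 h was shown by 1.65% of all tested probe sets, and by 0.0154%, 0.0616%, 0.0308% and 0.277% at 2, 5, 6 and 8 h.

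On the same array the 5′ actin control stood at 7.79% of 0 h and the 3′ control at 91.1%. Among 228 genes with several tested probe sets, 81 (35.5%) diverged by 5-fold or more at 4 h, compared with 0 to 8 genes at the other times. The low 4 h value of 11263_f_at of IMD2, 48.4% of 0 h against 77.5% and 92.8% for the other IMD2 probe sets, belongs to the same array. The part of RNA quality in these values was not tested, and the position of each probe set within its gene was not used here. The slope of 9700_at was -0.02 with all arrays (95% interval -0.47 to 0.42, limma adjusted p = 0.981) and between -0.13 and 0.18 when 1 time was left out.

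The genes of the neighbouring pathways came from lists of 9 kinds, chosen with earlier results of these data known. Of 100 listed genes that could be tested, members included, 0 passed in any of the 4 comparisons. For the paf1 deletion against wild type, 1 IMP synthesis gene passed with a replicate block, and 1 without paf1 deletion replicate 2. YNK1 and GUK1 complete the path from GMP to GTP. YNK1, nucleoside diphosphate kinase, differed by 0.59 in the paf1 deletion (SE 0.39, limma adjusted p = 0.537) and by 0.76 in the ctr9 deletion (SE 0.48). In the time course YNK1 signal was 1056 before doxycycline, then 1587, 2164, 1977, 2066 and 1667 after 2, 4, 5, 6 and 8 h, above the 0 h array throughout, and GUK1, guanylate kinase, had a slope of -0.05 (SE 0.032).

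Purine genes other than the 4 members, GUK1 and YNK1 included, had more negative than positive differences in the paf1 deletion. Of the 30 tested, 22 were nominally lower, with a median of -0.26 against -0.06 over all tested probe sets, and 0 passed. Wild type array 1 was the higher one for 13 of 14 IMP synthesis genes and 5 of 6 salvage genes with a mean score of at least 6. The count was not repeated without that array, so whether the lean rests on it was not tested. Between the paf1 and ctr9 deletions, whose differences use no wild type array, 22 of the 30 were also lower in the paf1 deletion. The median there was -0.285, against -0.085 over all tested probe sets. Both counts share the paf1 deletion arrays. Among the 30 genes ADE8, glycinamide ribotide transformylase, scored 8.49 and 8.07 (wild type), 5.88 and 6.78 (paf1 deletion), and 7.40 (ctr9 deletion). Its paf1 deletion and wild type arrays did not overlap, against 43.5% of all tested probe sets, with a paf1 difference of -1.95 (SE 0.49, limma adjusted p = 0.0862). AAH1, adenine deaminase, and FUN26, a nucleoside transporter, differed by -1.39 (SE 0.52, limma adjusted p = 0.244) and -1.41 (SE 0.56, limma adjusted p = 0.277). HPT1, also a salvage gene, scored 8.91 and 9.23 (wild type), 8.17 and 7.39 (paf1 deletion), and 8.21 (ctr9 deletion). Its paf1 difference was -1.29 (SE 0.37, limma adjusted p = 0.119). In the ctr9 deletion 14 of the 30 were lower and the median was 0.04. ADE17, which completes IMP, was the largest difference there, at 1.76 (SE 0.59, limma adjusted p = 0.372), from 7.51 and 6.84 in wild type to 8.93.

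Genes that regulate purine synthesis or act on IMD2 transcription did not pass either. BAS1, the activator of the ADE genes, differed by -1.63 in the paf1 deletion (SE 0.75, limma adjusted p = 0.344). It scored 4.59 and 5.34 (wild type), 4.34 and 2.33 (paf1 deletion), and 4.57 (ctr9 deletion), so the size of this difference rested largely on paf1 deletion array 2. PCF11, a cleavage and termination factor gene, differed by -2.25 (SE 0.56, limma adjusted p = 0.0823). DST1, which encodes the elongation factor TFIIS, differed by 1.51 in the paf1 deletion (SE 0.55, limma adjusted p = 0.234) and 2.21 in the ctr9 deletion (SE 0.68, limma adjusted p = 0.299). The list of 12 such factors had 0 past the threshold in each of the 4 comparisons. Genes known for start sites that sense nucleotides, URA2, URA8 and ADE12 beside IMD2 and IMD3, had a median paf1 difference of -0.03, with ADE12 lowest at -0.57 (SE 0.41). The 8 tested pyrimidine synthesis genes ranged from -0.38 for URA7 to 0.58 for URA10.

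The single times were also set beside those of ribosome production genes, which yeast expresses in step with growth. At 2 h the 41 ribosome production genes had a median of 51.8% of 0 h, all 41 being lower, against 79.0% for the 7 GTP synthesis probe sets. At 5 h their median was 52.9%, with 40 of 41 lower, while the GTP synthesis median was 103%. IMP synthesis genes stood at 80.4% at 2 h, 116% at 4 h and 78.9% at 5 h, and the 4 adenine branch genes at 88.1%, 133% and 63.9%. The 928 probe sets with the highest signals, which hold 6 of the 7, had a 5 h median of 103%, like the GTP synthesis probe sets, and the 3 regulators of purine genes one of 124%. With 1 array per time the difference was not tested. The 4 h medians come from the array whose 5′ actin control gave only 5.92% of the 3′ control, and the part of RNA quality in them was not tested. Over the whole course 39 of 41 ribosome production slopes were negative (median -0.07 against 0.01 for all), 8 with an unadjusted p under 0.05 and 0 past the threshold. The steepest were MAK21 at -0.18 (SE 0.047) and RRP12 at -0.17 (SE 0.047), each with limma adjusted p = 0.549.

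**Figure D5:**
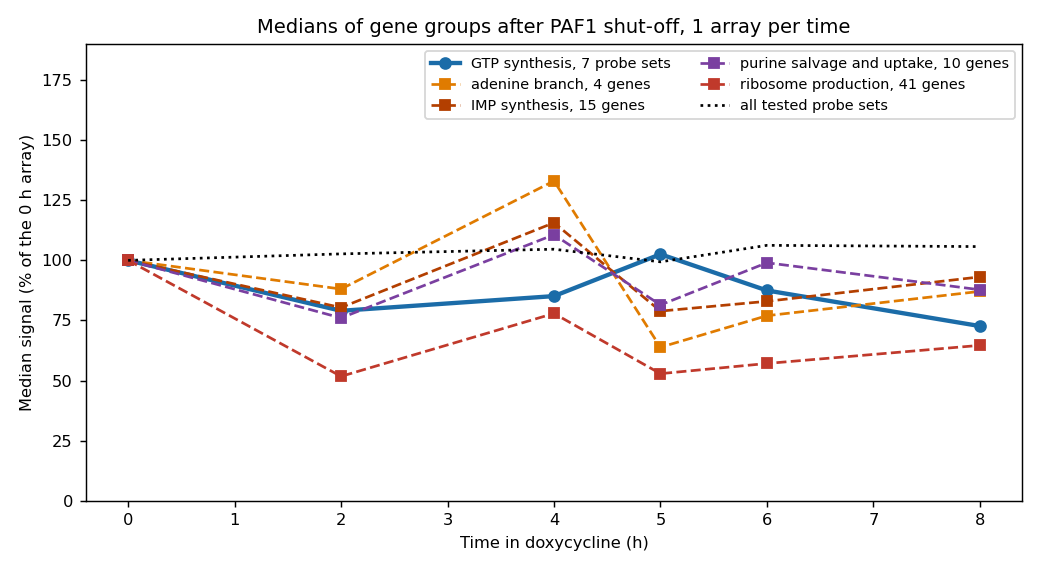
Median signal as a percentage of the 0 h array against hours in doxycycline for the 7 GTP synthesis probe sets, 4 gene lists and all tested probe sets, 1 array per time. The GTP synthesis median is 79.0% at 2 h and 103% at 5 h, and the ribosome production median 51.8% and 52.9%.

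None of the genes next to the members that could be tested passed in the paf1 deletion. PHO12, the acid phosphatase gene beside IMD2, was measured only with its copy PHO11 on 1 shared probe set. That probe set scored 2.60 and 2.91 (wild type), 4.57 and 4.73 (paf1 deletion), and 3.99 (ctr9 deletion), a paf1 difference of 1.90 (SE 0.63, limma adjusted p = 0.183). Its paf1 deletion and wild type arrays did not overlap, which held for 43.5% of all tested probe sets, and those of IMD2 did. YHR218W, on the other side, had 0 probe sets of its own and 7 shared with other genes, and was not used.

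SNR54, the snoRNA gene within IMD4, scored 5.73 and 6.68 (wild type), 7.92 and 6.58 (paf1 deletion), and 6.71 (ctr9 deletion). Its groups overlapped, with a paf1 difference of 1.05 (SE 0.61, limma adjusted p = 0.468). Its signal was 307 before doxycycline, then 285, 311, 467, 379 and 482 after 2, 4, 5, 6 and 8 h, a slope of 0.09 per hour (SE 0.037, limma adjusted p = 0.556). TRS130 and SKY1 beside GUA1 differed by -1.26 (SE 0.56, limma adjusted p = 0.324) and 0.34 (SE 0.42, limma adjusted p = 0.797) in the paf1 deletion, against -0.24 for GUA1.

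Likeness to other genes was measured as the mean of Pearson's r over the 6 log2 signals and r over the 5 scores, among 5261 other 1-gene probe sets tested in both sets. With so few arrays a high value is common, and it is given as a description. For GUA1 the nearest were SND3 (0.957), DPS1 (0.952), ELO3 (0.937), NOP58 (0.936) and LCB1 (0.933). For IMD3 they were SNR50 (0.952), SMC3 (0.946), YCK1 (0.922), FKS1 (0.875) and ELO2 (0.875).

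For the IMD2 probe set 11264_f_at the nearest were ribosomal protein genes and IMD2 itself, RPL14A (0.943), RPL6A (0.937), RPL13B (0.924), IMD2 by 4323_f_at (0.924) and RPS1B (0.902). The scores of 11264_f_at include its gap of 2.18 between the wild type arrays, and the part of that gap in the likeness was not tested. For 4323_f_at the first was 11264_f_at, and for 11263_f_at it was RPS14B (0.960). The IMD4 probe sets shared none of their 5 nearest. For 9699_at the first was KNS1 (0.941), and for 9700_at it was SEC16 (0.952). The likeness of 9700_at includes its 4 h value, 7.30% of 0 h, from the array with the low 5′ actin control. Likeness was not recomputed without that array, so this difference between the IMD4 probe sets may rest on it.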

How the data were processed

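The deposited table held 11 arrays of 9335 probe sets, 60 of them controls that were left out of tests. Per the labels, about 8 µg of total RNA was made into biotinylated cRNA. The strain columns held a score deposited by the authors without a scale, and the time course columns a linear signal intensity deposited by the authors. The software is not given in the sources used here. Scores were used unlogged, and signals were floored at 5.6 (10th percentile) ahead of the logarithm. Testing was limited to probe sets with a mean at or above the 30th percentile (score 2.84, signal 34.6). Of the probe sets 6504 had 1 gene, 328 several and 2443 none. Linear models used limma 3.58.1 (eBayes with a trend) in R 4.3.3, two-sided, Benjamini-Hochberg over all probe sets tested, threshold 0.05, with 2 residual degrees of freedom for strains and 4 for the time course. The lone ctr9 deletion array was assumed to vary like the other groups. The fits were tested on simulated data. Each listed gene used its 1-gene probe set with the highest mean. Gene order came from RefSeq, assembly R64, and the array's build was not given. Alternatives were other filters, quantile normalization, no variance trend, a pseudocount of 16, a replicate block, a fit of wild type and paf1 deletion alone, and leaving out arrays.

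Named genes were the 4 members, their neighbours, PAF1 and CTR9, the 2 largest changes per list and the 5 most alike probe sets. HPT1 was added after its values were seen. Members and lists were chosen with earlier results of these data known. The number of arrays limits the precision.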

Additional observations from a re-analysis of the deposited data

How the results depend on the processing

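None of the 7 probe sets passed the threshold in any comparison under any alternative run (limma adjusted p at least 0.285), and of 280 recomputed differences and slopes 255 kept their direction. The counts over all probe sets moved more, and the cause was not tested. Against wild type the paf1 deletion had 111 calls, and 41 with no filter, 56 with the 50th percentile filter, 42 with quantile normalization, 39 without a trend and 0 to 185 when 1 array was left out. The ctr9 deletion had 2 calls, and 0 with no filter, the 50th percentile filter, quantile normalization or no trend, and 0 to 107 when 1 array was left out. Between the deletions 4 calls became 2 with the 50th percentile filter, quantile normalization or no trend, and 0 to 14 when 1 array was left out. With quantile normalization the paf1 difference of IMD3 was 0.071.

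The replicate numbers were not taken as pairs, since deviations of same-numbered arrays correlated at 0.008 over 2 pairs. With a replicate block the paf1 deletion had 198 calls and the ctr9 deletion 26. In that fit the ctr9 differences of IMD2 were -0.145 (11263_f_at), -0.407 (11264_f_at) and -0.347 (4323_f_at), and the difference between the deletions for 11263_f_at was 0.285.

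Leaving out 1 array turned signs in both directions. Against wild type the paf1 differences ran from -0.975 to 1.25 (11263_f_at), -0.565 to 1.61 (11264_f_at), -0.40 to 1.27 (4323_f_at), -0.36 to 0.31 (IMD3), -0.53 to 0.15 (9700_at) and -0.72 to 0.23 (GUA1). The ctr9 differences ran from -0.65 to 1.58, -0.80 to 1.38 and -0.58 to 1.09 for the same IMD2 probe sets, -0.05 to 0.27 (9699_at) and -0.73 to 0.22 (GUA1). Between the deletions the ranges were -0.07 to 0.54 (11264_f_at), -0.19 to 0.55 (4323_f_at) and -0.02 to 0.04 (GUA1). Slopes ran from -0.0473 to 0.0286 (11263_f_at), -0.0492 to 0.0144 (4323_f_at), -0.0255 to 0.042 (9699_at) and -0.126 to 0.176 (9700_at).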
